A study of Mus musculus with 4 samples.

Results

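The genes described here encode the proteasome, the barrel-shaped protease that degrades proteins tagged with ubiquitin. Its core is a stack of rings, with alpha subunits at both ends as a gate and beta subunits inside, of which Psmb5, Psmb6 and Psmb7 carry the catalytic sites. A cap sits on the core. Its base unfolds substrates with a ring of ATPases (the Psmc genes) and its lid and receptors, encoded by Psmd genes, bind the ubiquitin chain and cut it off. B cells in germinal centers (GC), the sites in the spleen where activated B cells mutate their antibody genes and are selected, cycle between centroblasts (CB), which divide, and centrocytes (CC), which present antigen to T cells and are selected. Peptides for MHC class I come from proteasomes, and immune cells replace the catalytic subunits in part by the immunoproteasome subunits Psmb8, Psmb9 and Psmb10.

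Members were chosen by symbol alone: Psma1 to Psma7, Psmb1 to Psmb7, Psmc1 to Psmc6 and Psmd1 to Psmd14. All 34 were among the 31053 genes counted. They were read as 7 alpha ring genes, 3 catalytic and 4 other beta genes, 6 base ATPases, 3 other base genes (Psmd1, Psmd2 and Psmd4), 8 lid genes, and 3 genes whose products help to assemble the base and are not part of the finished particle (Psmd5, Psmd9 and Psmd10). The genes are on 15 chromosomes and each is annotated as protein-coding in the GENCODE vM21 annotation of GRCm38.

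B220+IgD- cells were sorted from spleens of mice given sheep red blood cells, at day 10, and their transcripts were counted at the 3' end in single cells by a droplet method. Mice were 8 weeks old, and each genotype was 1 mouse and 1 library. Every mouse carried the Cγ1-cre allele, which is active in GC B cells and is not directed at T cells: WT had this allele alone, C was also heterozygous for floxed Crebbp, K for floxed Kmt2d, and CK for both. Crebbp encodes a histone acetyltransferase and Kmt2d a histone methyltransferase. Values of the 4 libraries are always given in the sequence WT, C, K, CK. By this sequence the libraries held 8071, 9981, 8105 and 12852 barcodes, with 33270825 to 39803865 unique molecular identifiers (UMIs, each 1 captured transcript) per library. The 34 genes took 205478, 208013, 258794 and 275014 of these UMIs. The deposited annotation named 9804 GC B cells as early CB, CB, transition, CC, recycling or prememory cells. Among the remaining barcodes, clusters with fixed markers gave 8511 non-GC B-like, 7810 T-like and 199 plasma-like cells.

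Libraries shared 17 to 31 barcodes per pair, and at most 4 annotated ones. The K library stood apart: of 28 clusters, 3 held almost only its cells (1115 of 1158, 826 of 859 and 815 of 854 cells), and most of its non-GC B-like cells were in other clusters than those of WT. In that library long transcripts were lower than in WT. In T-like cells the median log2 ratio of K over WT was 0.076 for the 25% of genes with the shortest exonic length and -0.50 for the 25% with the longest, and in CB 0.087 and -0.44. Of the 34 genes, 15 lay in the shortest such group and 12 in the next. Markers fitted the labels for T-like cells (8231 to 8776 CPM, the count scaled to 1000000 UMIs per class, summed over 8 T cell markers, and at most 273 in any other class). The 8 GC markers summed to 1203 to 2332 CPM in early CB, CB, transition, CC and recycling cells, but to 131 to 203 CPM in prememory cells, close to the 109 to 159 CPM of non-GC B-like cells.

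Promoters of 28 of the 34 genes were in the RefSeq table of GRCm38.p6 and were searched on both strands over the 250 bases before the annotated start. CCGGAAG, the core of a site read by ETS family factors, was present in at least 1 promoter of 9 of the 28 genes (32.1%), against 7.83% of all 27025 genes counted in the same way. Counted by promoter, it was in 10 of the 30 promoters of these genes (33.3%) and in 6.91% of all 32851 promoters. These 9 genes were Psma6, Psmc1, Psmc2, Psmc6, Psmd2, Psmd4, Psmd6, Psmd11 and Psmd12. TGACNNNGC, the core of the antioxidant response element, was in 5 of 28 genes (17.9%) against 11.5% of all genes, CCAAT in 39.3% against 37.5%, and the E-box CACGTG in 7.14% against 6.86%. Genes with a large (Psmc1, Psmc6) and a small (Psmd11) difference between CB and CC are shown for the first motif, and 2 catalytic genes for the second, with the matched letters in capitals (CTTCCGG is CCGGAAG on the other strand).
Psmc1 (chr12:100110163-100110191, plus strand): tggtggatgcaCTTCCGGcggtggcgatt
Psmc6 (chr14:45329713-45329741, plus strand): aggcgggccagCCGGAAGgggcggagcca
Psmd11 (chr11:80428593-80428614, plus strand): cgagggcgggtCTTCCGGgtgt
Psmb5 (chr14:54618024-54618052, minus strand): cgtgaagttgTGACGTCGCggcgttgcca
Psmb6 (chr11:70525338-70525356, plus strand): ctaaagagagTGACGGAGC
Matches ended 21 bases before the RefSeq start in Psmc1, 93 in Psmc6, 4 in Psmd11 and 38 in Psmb5, and directly at it in Psmb6. The window of Psmc1 is inside its GENCODE gene record, which begins further upstream (chr12:100110154-100123405, plus strand). The other windows end before the first base of their records: Psmc6 at chr14:45329788-45349705, Psmd11 at chr11:80428615-80473248 and Psmb6 at chr11:70525367-70527858, all on the plus strand, and Psmb5 at chr14:54614119-54618022 on the minus strand. A match describes letters in these windows and no binding was measured.

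UMIs were summed per library and class, and the level of a gene or group is its CPM of that sum. The 34 genes together stood higher in every GC class than in non-GC B-like, T-like and plasma-like cells. Their summed level was 7954, 7675, 8335 and 8075 CPM in CB (8010 ± 274, mean ± SD over 4 libraries, as for the next values) and 7383, 7878, 8528 and 8402 CPM in transition cells (8048 ± 525), the cells between CB and CC. In CC it was 5860, 5992, 6492 and 6327 CPM (6168 ± 292), below every CB and transition value. Early CB had 7412 ± 852 CPM, with WT, the library with the fewest early CB (38 cells), lowest at 6180 CPM. Prememory cells had 6317, 6812, 6957 and 6797 CPM (6721 ± 279).

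Outside the GC, the summed level was 4157, 4402, 4824 and 4747 CPM in non-GC B-like cells (4532 ± 311) and 4586, 4839, 4961 and 5118 CPM in T-like cells (4876 ± 225). The ranges of these classes overlapped, though T-like cells were higher in each library, and both were below every GC class. Plasma-like cells had the lowest CPM, 2756 ± 307, with 49.9% to 57.8% of UMIs from immunoglobulin genes. With ribosomal protein, immunoglobulin and mitochondrial genes left out of the total, plasma-like cells rose to 7454 ± 856 CPM, between non-GC B-like (6459 ± 534) and CC (8704 ± 620), while CB stayed above CC at 10561 ± 546. On this scale T-like cells were at 7884 ± 494 CPM (7352 to 8507), above every non-GC B-like value (5926 to 7152). Their range overlapped that of CC (8231 to 9548), with CC higher in each library. Recycling cells, at 8 to 49 cells per library, were the highest class at 9345 ± 721 CPM and entered no test. A CPM is a share of captured UMIs, so a higher value cannot be told apart from less RNA of other genes in the same cells.

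**Figure D1:**
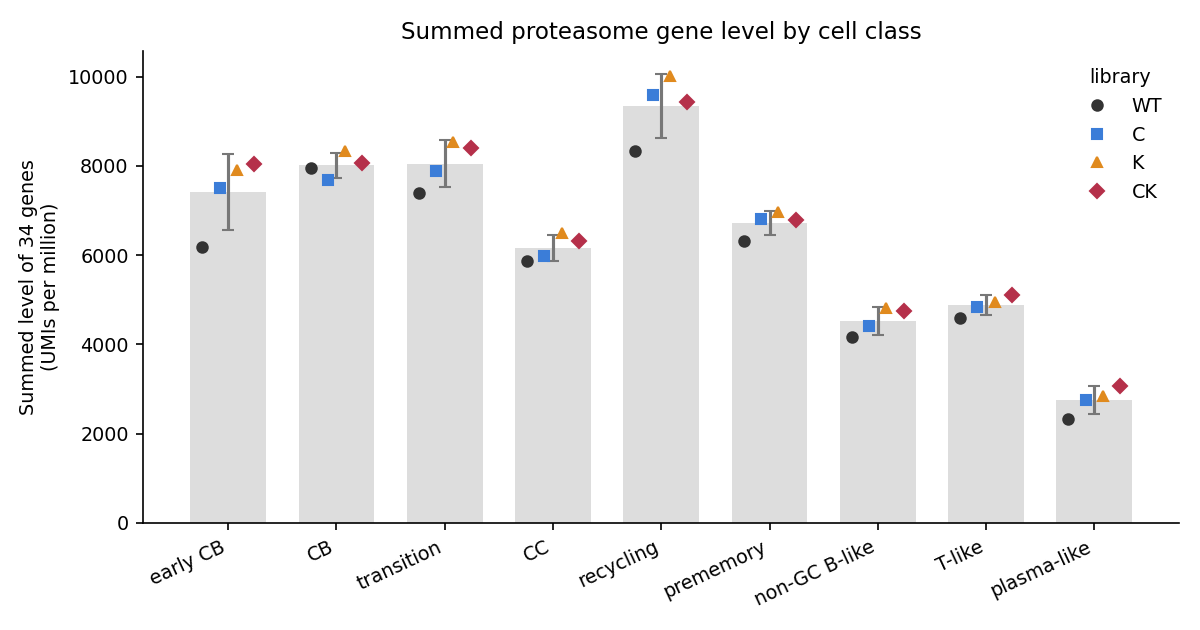
Summed level of the 34 proteasome genes in CPM (vertical axis from 0) by cell class, with 1 point per library, bars for the mean and error bars for the SD over 4 libraries. CB and transition cells sit between 7383 and 8528 CPM in all libraries, CC between 5860 and 6492, and non-GC B-like and T-like cells between 4157 and 5118.

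Single genes followed this order with a few departures. Over the 7 classes with enough cells for a test (recycling and plasma-like cells left out), the highest mean CPM was in CB for 14 genes, in transition cells for 9, in prememory cells for 7 and in early CB for 4, and in CC for 0. The 7 genes highest in prememory cells were Psma3, Psma4, Psma5, Psmc5, Psmd3, Psmd9 and Psmd11. The lowest class was non-GC B-like for 22 genes and T-like for 12. The summed level of CB and of transition cells overlapped between libraries, so neither class ranked first in the sum.

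Between CB and CC, 29 of the 34 genes were higher in CB and 0 were lower (edgeR quasi-likelihood test with library as a block and Benjamini-Hochberg adjustment over 10205 genes, adjusted p under 0.05). Of all genes tested, 24.1% were higher and 23.7% lower. The median log2 fold change over the 34 genes was 0.31, against -0.022 over all genes, and 32 of 34 were higher in CB in each of 4 libraries. The summed level gave log2 ratios of CB over CC of 0.44, 0.36, 0.36 and 0.35. The exceptions in the libraries were Psmc5 and Psmd9, each higher in CB in 3 of 4. Annotation labels were made by the authors from these same counts, and the libraries are mice of different genotypes. The p-values rest on a spread estimated for each gene over all 28 sums of the tested classes (18 residual degrees of freedom). They do not measure the spread of this class difference alone over the 4 mice.

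The library block was taken because each library holds all classes of 1 mouse. Without it 14 genes were higher in CB than in CC, with 0 lower. CB had more UMIs per cell (medians of 4604 to 5526) than CC (2670 to 4741). Among cells of 3000 to 6000 UMIs only, 18 genes were higher in CB and 0 lower, with a median log2 fold change of 0.25, and the summed level was 7592 to 8705 CPM in CB and 5797 to 6779 CPM in CC. Several marker lists moved with this comparison, without overlap of the libraries, and their part in it was not tested. The 10 non-GC B-like markers summed to 3932 to 4475 CPM in CB and 6566 to 6840 CPM in CC, the 8 T cell markers to 65 to 84 CPM in CB and 167 to 209 CPM in CC, and the 6 plasmacytoid dendritic markers to 318 to 409 CPM in CB and 636 to 707 CPM in CC. In the other direction, proliferation genes had 1972 to 3307 CPM in CB and 324 to 428 CPM in CC, the 8 GC markers 1862 to 2332 and 1377 to 1761 CPM, and the 8 plasma cell markers 2861 to 3246 and 2148 to 2636 CPM. None of these GC, T cell, plasma cell and non-GC B-like markers was at 0 in all libraries of CB. With doublet calls removed, 29 were higher and 0 lower. The 84 ribosomal protein genes moved the other way, with log2 ratios of CB over CC of -0.34 to -0.27 in 4 libraries.

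The base ATPases, the motor that pulls substrates into the core, had the largest differences of any role group between CB and CC, with 5 of 6 called and a median log2 fold change of 0.58. Their summed level gave log2 ratios of 0.62, 0.57, 0.57 and 0.59. Psmc1, whose tail helps to open the gate of the core, had 156, 147, 181 and 149 CPM in CB and 84.2, 75.4, 85.1 and 83.1 CPM in CC. The groups did not overlap, and the log2 fold change was 0.87 ± 0.090 (SE; adjusted p = 2.6e-12). Psmc3, another ATPase, had 218, 229.9, 254 and 246 CPM in CB and 136, 117, 164 and 131 CPM in CC, a log2 fold change of 0.74 ± 0.066 (SE; adjusted p = 1.4e-14) with no overlap. Psmc6, Psmc2 and Psmc4 were also called, with log2 fold changes of 0.70, 0.45 and 0.42. Psmc5 had 164, 160.2, 178 and 175 CPM in CB and 129.6, 176, 159 and 156 CPM in CC. Here C was higher in CC, the groups overlapped, and the test did not call it, with a log2 fold change of 0.066 ± 0.073 (SE; adjusted p = 0.48). In cells of 3000 to 6000 UMIs the log2 fold changes of Psmc1 and Psmc3 were 0.72 (adjusted p = 9.2e-09) and 0.59 (adjusted p = 2.4e-08), and without K they were 0.80 (adjusted p = 9.7e-09) and 0.79 (adjusted p = 1.2e-11). The CCGGAAG match was found in the promoters of Psmc1, Psmc2 and Psmc6 among the ATPases. Those of Psmc4 and Psmc5 had no match, and the RefSeq table held no promoter for Psmc3.

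The catalytic subunits were all called. Psmb7, which bears the trypsin-like site, had 103, 102, 114 and 98.1 CPM in CB and 65.1, 56.3, 80.7 and 60.2 CPM in CC, with no overlap and a log2 fold change of 0.61 ± 0.094 (SE; adjusted p = 1.9e-07). Psmb5, which bears the chymotrypsin-like site, had 348, 370.4, 400.2 and 410.2 CPM in CB and 265, 295, 307 and 312 CPM in CC, a log2 fold change of 0.31 ± 0.056 (SE; adjusted p = 4.9e-06). Psmb6, with the caspase-like site, had 262, 244, 286 and 272 CPM in CB and 195, 194, 215 and 199 CPM in CC, a log2 fold change of 0.34 ± 0.066 (SE; adjusted p = 2.1e-05). CB were above CC in every library for all 3 genes. The 4 other beta genes, which hold the ring together without a catalytic site, were all called with log2 fold changes of 0.23 to 0.30. Psmb4 was the highest, with 207, 198, 240.2 and 194 CPM in CB and 160.2, 156, 191 and 144 CPM in CC (0.30 ± 0.065, adjusted p = 1.0e-04). Psmb2 was the lowest, with 345, 372, 423 and 411 CPM in CB and 285, 293, 366 and 323 CPM in CC (0.23 ± 0.057, adjusted p = 5.3e-04), and the ranges of its libraries overlapped while each library was higher in CB.

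Of the alpha ring genes, 6 of 7 were called, with a median log2 fold change of 0.28. Psma6 had 267, 254, 299 and 255 CPM in CB and 190.3, 182, 207 and 193 CPM in CC, with no overlap and a log2 fold change of 0.41 ± 0.066 (SE; adjusted p = 5.7e-07). Psma3 was the alpha gene not called, with 377, 367, 377 and 412 CPM in CB and 335, 366, 342 and 379.9 CPM in CC. Its ranges overlapped and the log2 fold change was 0.043 ± 0.058 (SE; adjusted p = 0.58).

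In the base without the ATPases, the scaffold gene Psmd1 had 104, 92.4, 87.8 and 94.9 CPM in CB and 66.7, 61.05, 68.3 and 64.6 CPM in CC, a log2 fold change of 0.45 ± 0.092 (SE; adjusted p = 4.1e-05) with no overlap. The ubiquitin receptor Psmd4 differed less, with 233, 268, 271 and 285 CPM in CB, 204, 229, 215 and 232 CPM in CC and a log2 fold change of 0.21 ± 0.067 (SE; adjusted p = 0.0084), and Psmd2 had 0.22. In the lid 6 of 8 genes were called. Psmd13, a structural lid subunit, had 243, 240.0, 272 and 249 CPM in CB and 157, 158, 162 and 175 CPM in CC, with no overlap and a log2 fold change of 0.56 ± 0.066 (SE; adjusted p = 2.1e-10). Psmd14, the lid enzyme that removes the ubiquitin chain, had a log2 fold change of 0.42. Psmd3 had 71.7, 67.8, 94.6 and 69.2 CPM in CB and 67.8, 66.9, 80.3 and 69.04 CPM in CC, overlapping ranges and a log2 fold change of 0.039 ± 0.094 (SE; adjusted p = 0.77), and Psmd11 had 0.14 (adjusted p = 0.072). The base chaperones were counted less often. Psmd10, also known as gankyrin, had 60.3, 54.8, 67.6 and 58.4 CPM in CB and 52.5, 46.7, 43.1 and 44.7 CPM in CC, with no overlap and a log2 fold change of 0.32 ± 0.10 (SE; adjusted p = 0.0072). Psmd5 had 27.02, 25.97, 28.7 and 25.3 CPM in CB and 20.2, 24.95, 23.97 and 14.8 CPM in CC. Each library was higher in CB, but the log2 fold change of 0.31 ± 0.15 (SE; adjusted p = 0.077) was not called.

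**Figure D2:**
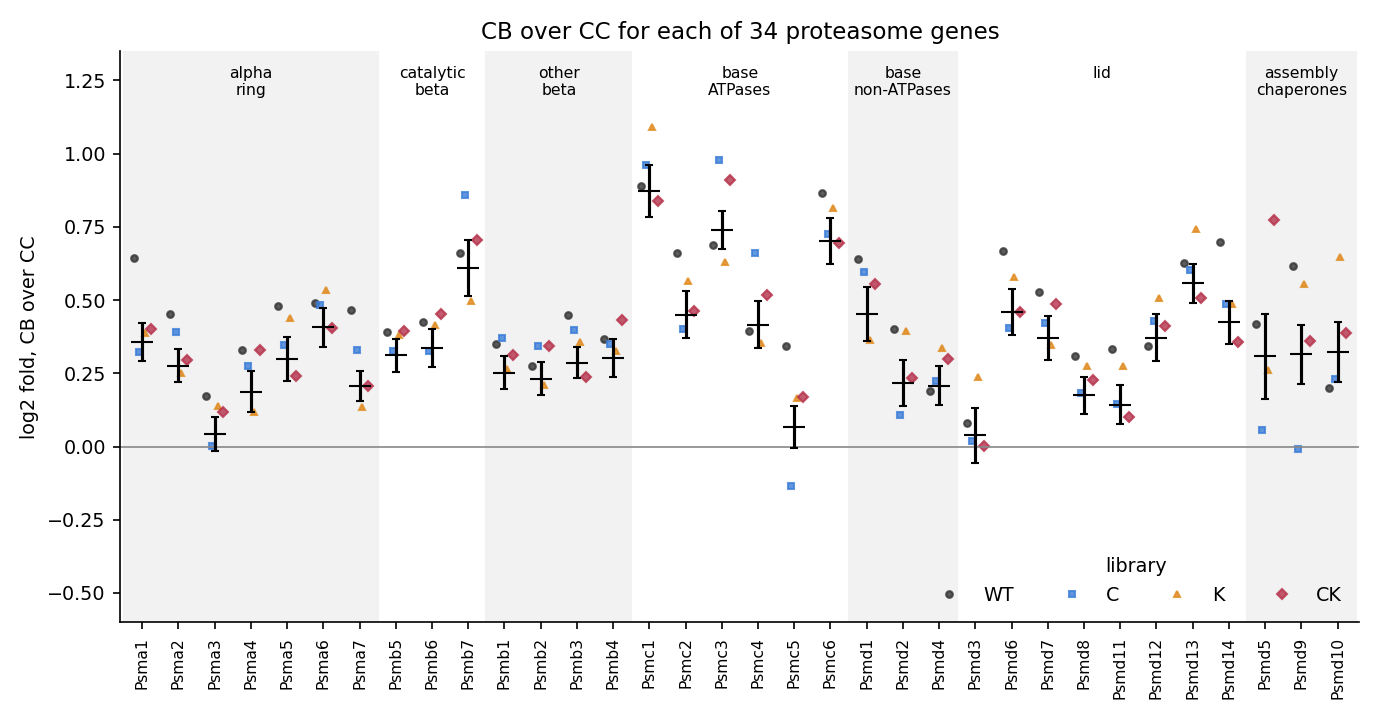
Log2 fold change of CB over CC for each of the 34 genes, grouped by role, with horizontal marks and error bars for the fitted value and its standard error and coloured points for the ratio in each of 4 libraries. The base ATPases Psmc1 (0.87), Psmc3 (0.74) and Psmc6 (0.70) and the catalytic Psmb7 (0.61) lie farthest to the CB side, and Psma3, Psmc5 and Psmd3 lie near 0.

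Transition cells also had more of these transcripts than CC. Against CC, 30 genes were higher and 0 lower (18.9% of all genes higher, 16.8% lower), with a median log2 fold change of 0.34, and 13 were higher without the library block. Psmc6 (0.64), Psmb7 (0.55), Psmd13 (0.54) and Psmc3 (0.50) led, and Psmc5, not called between CB and CC, was called here at 0.21. In cells of 3000 to 6000 UMIs 17 were higher, with a median of 0.25.

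Early CB and CB differed in few of the genes. Early CB were higher for 1 gene and lower for 4 (14.0% and 11.9% of all genes), with a median of -0.024. The 4 lower genes became 2 without WT, 2 without C, 2 without K, 2 in cells of 3000 to 6000 UMIs, 7 scaled to library totals only and 1 without the library block, and with cells of 2500 genes or more included 6 were higher and 2 lower. Psma7, an alpha ring gene, was higher in early CB (0.31), while Psmc1 was lower (-0.57), as were Psmd8 (-0.21), Psmb3 (-0.20) and Psmb6 (-0.19). For Psmc1 the early CB had 42.5, 107, 106 and 115 CPM, all below every CB value given above. The WT value rests on 38 early CB, and without WT the log2 fold change of Psmc1 was -0.48 (adjusted p = 2.2e-05).

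Prememory cells, the labelled precursors of memory B cells, differed from CC in both directions, for shares of the genes near those of all genes. CC were higher for 4 genes and lower for 7 (18.7% and 17.4% of all genes), with a median of -0.039. Scaled to library totals only, 2 were higher and 14 lower, with no low-count filter 6 and 2, without the library block 2 and 3, and in cells of 3000 to 6000 UMIs 3 and 2. Without C, 4 were higher and 4 lower, and without K 2 and 10. Higher in CC were Psmb1 (0.54), the lid genes Psmd8 (0.37), Psmd14 (0.35) and Psmd13 (0.29). Lower in CC were the alpha genes Psma5 (-0.53), Psma4 (-0.40) and Psma3 (-0.20), together with Psmc5 (-0.33), Psmd11 (-0.30), Psmd7 (-0.28) and Psmb5 (-0.24). Psma5 had 101, 88.1, 102 and 99.7 CPM in CC and 144, 151, 149 and 173 CPM in prememory cells, and Psmb1 had 437, 394, 473 and 446 and 278, 341, 385 and 304 CPM. Neither gene's groups overlapped. Heat shock genes moved with this contrast, at 4271 to 4953 CPM in CC and 7376 to 8724 CPM in prememory cells, as did the plasmacytoid dendritic markers, at 636 to 707 and 3029 to 3724 CPM, and their part in it was not tested. The plasmacytoid dendritic markers were higher still in non-GC B-like cells, at 4995 to 6415 CPM.

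Against non-GC B-like cells, the GC classes were higher for nearly every gene. CB were higher for all 34 (33.2% of all genes higher, 35.6% lower), with a median log2 fold change of 0.84. Psmd14 led at 1.32, followed by Psmb7 (1.20), Psmc1 (1.18), Psma7 (1.16) and Psmc3 (1.15). Psmd14 had 267, 192, 214 and 209 CPM in CB and 88.96, 86.2, 74.4 and 100.4 CPM in non-GC B-like cells. CC were higher for 33 genes and lower for 0 (26.2% and 27.0% of all genes), with a median of 0.50. Psmd9 was the exception, at -0.063 ± 0.097 (SE; adjusted p = 0.61). Psma7 (0.95) and Psmd14 (0.89) differed most, and the log2 fold changes of the 6 ATPases were 0.26 to 0.48. Median UMIs per cell were 1222 to 2173 in non-GC B-like cells.

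Between the lymphocytes outside the GC, non-GC B-like cells were higher than T-like cells for 2 genes and lower for 20 (27.9% and 31.7% of all genes), with a median of -0.18. Psmd9 (0.28) and Psmd8 (0.15) were higher in non-GC B-like cells. Psma7 was lowest, with 213, 236, 262 and 260.2 CPM in non-GC B-like and 309.9, 332, 337 and 353 CPM in T-like cells (-0.58). Scaled to library totals only, 5 genes were higher and 8 lower, and without the library block 0 were higher and 6 lower. The 2 higher genes became 1 without C and 1 without CK.

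The authors ordered the annotated cells along pseudotime, a rank that runs from CB towards CC and prememory cells. Cells were placed by the share of WT cells before them and divided into 5 bins with equal numbers of WT cells. In K the number of WT cells before a cell fell at some point along the rank. Prememory cells made up 47.8, 39.9, 18.8 and 12.7% of the cells in bin 5. Over these bins the summed level of the 34 genes was 7511, 7687, 7014, 6144 and 5397 CPM for WT and 7808, 8009, 7765, 6645 and 5691 CPM for C. For K it was 8241, 8799, 8384, 7400 and 5701 CPM, and for CK 8201, 8543, 8147, 7449 and 5787 CPM. It was thus highest in bin 2 and lowest in bin 5 in 4 of 4 libraries. The log2 ratios of bin 1 over bin 5 were 0.48 (0.43 to 0.53), 0.46 (0.42 to 0.49), 0.53 (0.50 to 0.57) and 0.50 (0.47 to 0.53), with 95% intervals that, like all intervals here, cover counting error only. For 32 genes bin 1 was higher than bin 5 in all libraries, and for Psmd3 and Psmd9 in 3. The base ATPases were highest in bin 1 in each library, at 945, 1018, 1106 and 1078 CPM. Their bin 2 values were close to these, at 936, 977, 1102 and 1062 CPM, and the difference was not tested. In bin 5 the base ATPases had 654, 651, 683 and 663 CPM. Pseudotime was derived from the same counts, and proliferation genes fell along it as well (log2 ratios of bin 1 over bin 5 of 3.39 to 3.86).

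**Figure D3:**
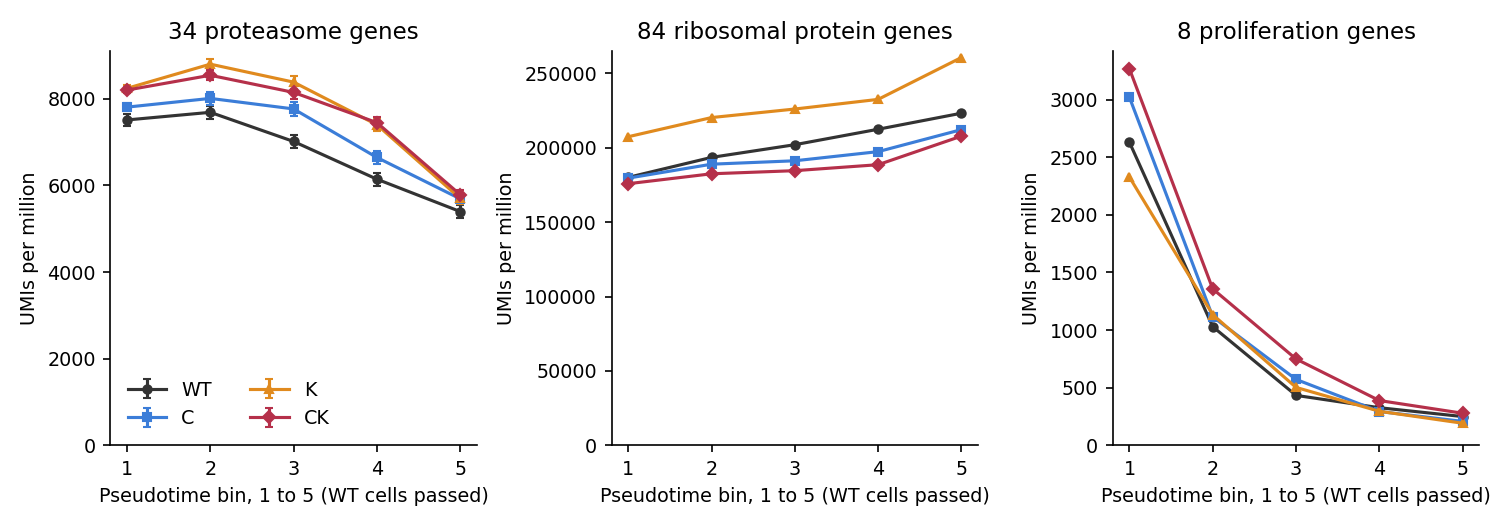
Summed CPM (axes from 0) by bin of pseudotime position for the 34 proteasome genes (left, with 95% counting intervals), 84 ribosomal protein genes (middle) and 8 proliferation genes (right), 1 line per library. The proteasome level of each library is highest in bin 2 (7687 to 8799 CPM) and lowest in bin 5 (5397 to 5787 CPM).

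Cells were also split by the deposited cell cycle scores within each class. In CB, cells with neither the S nor the G2M score above 0 had the highest summed level, 9299, 8570, 10095 and 9637 CPM, from 23, 34, 58 and 68 cells. Cells with the G2M score leading had 7875, 7875, 8350 and 8139 CPM. Those with the S score leading had 6949, 6419, 7551 and 7431 CPM, from 18, 66, 107 and 184 cells. This order was the same in 4 of 4 libraries. In CC the order was different. S-leading cells had 6347, 6657, 7176 and 6911 CPM, from 19, 30, 55 and 106 cells. Cells with neither score above 0 were lower in each library, at 5837, 5950, 6416 and 6238 CPM. In WT the counting intervals of these groups overlapped (5812 to 6918 and 5724 to 5951 CPM). In transition cells the S-leading group was higher in WT, C and CK (7454, 8105 and 8512 CPM against 7353, 7635 and 8112) and not in K (8514 against 8534). G2M-leading transition cells reached 10 cells in K and CK only, where they had 8994 and 9462 CPM (17 and 38 cells), above both other groups of their library. Scores were computed by the authors from the same counts, so these are descriptions.

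Of 35 other genes of the pathway, 32 were tested, 2 were too low and Paaf1 was not analysed here. Between CB and CC, 15 were higher in CB and 7 lower (24.1% and 23.7% of all genes). Among genes that build or regulate the particle, Uchl5, a deubiquitinase of the cap, was higher at 1.17, followed by the core assembly genes Psmg2 (0.48), Psmg3 (0.34) and Pomp (0.23), Usp14, another deubiquitinase (0.41), the inhibitor Psmf1 (0.37) and the cap parts Adrm1 (0.28) and Sem1 (0.27). Psmg4, a partner of Psmg3 in core assembly, was lower (-0.60). Of the regulators of proteasome genes, Nfe2l2 was higher (0.48) and Nfe2l1 lower (-0.37), while Ngly1, which helps to activate the latter, was higher (0.51). Ubqln1 and Vcp, which deliver substrates, and Ecpas were higher at 0.15 to 0.46. The genes of the interferon-inducible activator, Psme1 (-0.45) and Psme2 (-0.48), were lower in CB, as was Rps27a (-0.48), which encodes ubiquitin fused to a ribosomal protein.

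Between CB and CC, the immunoproteasome subunits did not follow the catalytic subunits they replace. Psmb10, which takes the place of Psmb7, had 149.7, 141, 170.2 and 138 CPM in CB and 184, 199.6, 219 and 191 CPM in CC, lower in CB with no overlap (-0.47 ± 0.068, adjusted p = 5.6e-08). Psmb8 (-0.10 ± 0.047, adjusted p = 0.065) and Psmb9 (0.077 ± 0.058, adjusted p = 0.28) were not called between CB and CC, but both were higher in CC than in prememory cells, by 0.98 and 1.07. Against non-GC B-like cells, Psmb8 (0.73) and Psmb9 (0.78) were higher in CB, as were Psmb5 (0.84) and Psmb6 (1.00). In that contrast Psmb10 was lower in CB (-0.33) and Psmb7 higher (1.20). Psmb8, Psmb9 and Psmb10 together took 70.4, 68.3, 69.3 and 67.2% of the UMIs of these genes and Psmb5, Psmb6 and Psmb7 in CB, 76.1, 75.2, 74.7 and 74.5% in CC and 63.4, 60.1, 60.00 and 57.96% in prememory cells. CC were above CB and prememory cells below it in every library. T-like cells had 76.4, 75.7, 74.5 and 76.1% and non-GC B-like cells 74.3, 74.5, 72.2 and 73.00%. The pairs moved differently: Psmb10 with Psmb7 was at 58.1% to 59.9% in CB, at 73.1% to 78.0% in CC and at 69.0% to 82.3% in prememory cells, whereas Psmb9 with Psmb6 was 59.9% to 63.2% in CB, 64.2% to 67.6% in CC and 42.1% to 54.3% in prememory cells. Psmb8 with Psmb5 was 71.9% to 75.9% in CB, 77.8% to 80.6% in CC and 58.0% to 64.7% in prememory cells. UMIs of different genes are captured at unequal rates, so the shares compare classes and are no measure of the makeup of the particle.

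**Figure D4:**
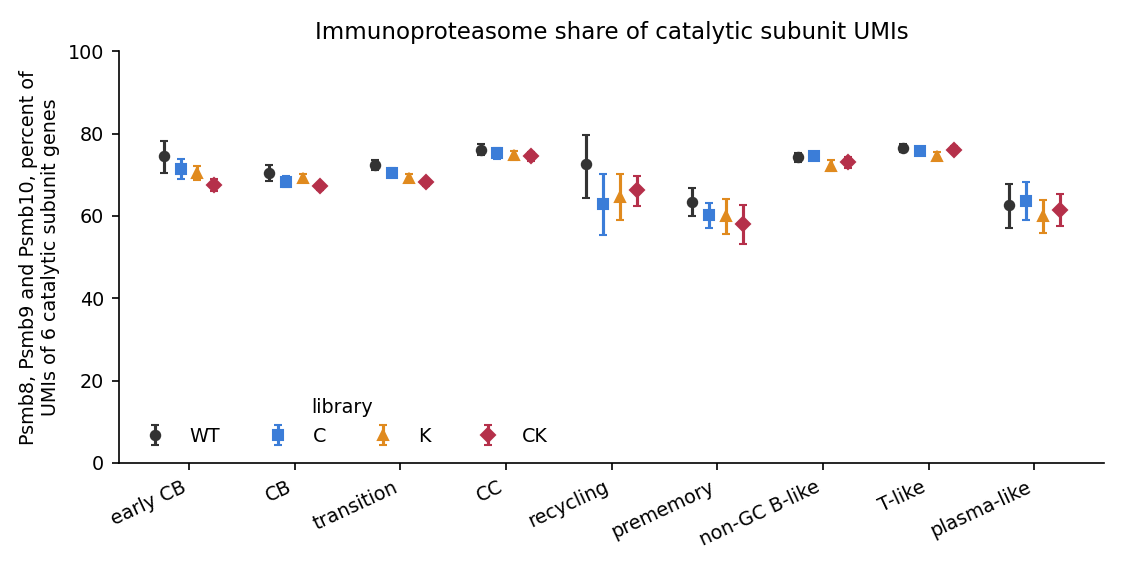
Share (%) of the UMIs of 6 catalytic genes that came from Psmb8, Psmb9 and Psmb10, by class, with 1 point per library and exact 95% binomial (Clopper-Pearson) intervals. CC lie at 74.5% to 76.1%, above CB at 67.2% to 70.4%, and prememory cells lie at 58.0% to 63.4%.

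The 34 genes varied together over the 28 sums of library and class, which share libraries and cell cycle state. All 561 pairs had a positive correlation of log2 CPM, with a median Pearson r of 0.77 and a lowest of 0.070, against a median of 0.079 over pairs of all genes at 50 CPM or more. Among the 32 of these genes with a mean of 50 CPM or more (Psmd5 and Psmd10 were lower), those least like the summed level of all 34 genes were Psmd9 (r = 0.51), Psma3 (r = 0.66) and Psmd3 (r = 0.66). That sum includes the gene itself. Among 2866 genes at a mean of 50 CPM or more, the genes outside the list most like the sum were Rps27l (r = 0.975), Lsm4 (0.973), Minos1 (0.971), Eif1ax (0.970) and the core assembly gene Pomp (0.959). These correlations are over class sums that are not independent and are given as a description.

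Between genotypes there is 1 mouse each, so values carry counting intervals and no test was run. In CB the summed level of C, K and CK had log2 ratios over WT of -0.052 (-0.091 to -0.012), 0.067 (0.031 to 0.10) and 0.022 (-0.014 to 0.057). In CC the ratios were 0.032 (-0.0061 to 0.070), 0.15 (0.11 to 0.18) and 0.11 (0.076 to 0.15), and in transition cells 0.093 (0.066 to 0.12), 0.21 (0.18 to 0.23) and 0.19 (0.16 to 0.21). Cells outside the GC were also above WT in every mutant, with ratios of 0.083 (0.056 to 0.11), 0.21 (0.18 to 0.25) and 0.19 (0.16 to 0.22) in non-GC B-like cells, and 0.078 (0.051 to 0.10), 0.11 (0.087 to 0.14) and 0.16 (0.13 to 0.18) in T-like cells. The median log2 ratio of all genes was near 0 in C and CK in these classes (-0.032 to 0.038) and -0.17 to -0.10 in K. Relative to T-like cells of the same libraries, the ratios in CB were -0.13 for C, -0.046 for K and -0.14 for CK. With cells of 2500 genes or more added, which the annotation leaves out, the ratios in CB were 0.047, 0.15 and 0.11. Early CB of WT, at 38 cells, were lower than those of all mutants, with log2 ratios of 0.28 (0.20 to 0.37), 0.36 (0.28 to 0.44) and 0.38 (0.30 to 0.46).

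Few of the genes passed a fold of 1.3 (genes under 50 UMIs in the pair of libraries left out). The shares of all genes given beside them were not matched for UMIs per gene, and counting error is wider at few UMIs. In CB, 0 were higher and 2 lower in C (12.5% and 12.7% of all genes), 1 higher and 0 lower in K (11.3% and 30.6%), and 0 and 0 in CK (17.2% and 18.7%). In CC, 2 were higher and 0 lower in C (9.57% and 8.35%), 0 and 0 in K (9.00% and 30.3%), and 0 higher and 1 lower in CK (12.0% and 9.46%). The genes of C in CB were Psmd14 (log2 ratio -0.48) and Psmc2 (log2 ratio -0.42), and those of C in CC were Psmc5 (log2 ratio 0.44) and Psmd9 (log2 ratio 0.42). Psmd3 was the gene of K in CB (log2 ratio 0.40) and Psmd5 that of CK in CC (log2 ratio -0.45). In transition cells, 0 were higher and 0 lower in C (8.36% and 8.93%), 3 and 0 in K (9.57% and 32.0%; Psmc1, Psmc5 and Psmd9), and 1 and 0 in CK (12.9% and 12.8%; Psmd9). In T-like cells, 0 were higher and 1 lower in C (5.11% and 8.38%), 3 and 0 in K (4.36% and 34.3%), and 2 and 1 in CK (5.67% and 7.72%), and in non-GC B-like cells 0 and 0 in C (4.60% and 7.49%), 3 and 0 in K (7.33% and 32.1%), and 2 and 0 in CK (7.05% and 9.70%).

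The largest single differences of CK from WT in CB were as follows. Psmd14, the lid enzyme, had 267, 192, 214 and 209 CPM, with WT above all mutants, and its log2 ratio of CK over WT was -0.36 (-0.56 to -0.15), against 0.12 in T-like and 0.17 in non-GC B-like cells. Psma5 had 140.3, 112, 138 and 118 CPM (-0.25, interval -0.53 to 0.030) and Psmc2 175, 130.4, 160.3 and 149 CPM (-0.22, interval -0.47 to 0.027), and both intervals included 0. On the other side, Psmd12, a lid gene, had 158, 171, 164 and 197 CPM and a ratio of 0.32 (0.067 to 0.57), against 0.39 in T-like cells. Psmd4 had 233, 268, 271 and 285 CPM (0.29, interval 0.088 to 0.50) and Psmb2 345, 372, 423 and 411 CPM (0.25, interval 0.083 to 0.42). WT was the lowest library for each of these 3 genes, and the T-like ratios were 0.19 and 0.31 for Psmd4 and Psmb2. In non-GC B-like cells the ratios were 0.25 for Psmd12, 0.37 for Psmd4 and 0.099 for Psmb2.

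In CC the highest ratio of CK over WT was that of Psmb3, a beta ring gene, with 422, 490.0, 473 and 530.2 CPM and 0.33 (0.20 to 0.46), beside 0.41 in T-like and 0.41 in non-GC B-like cells. Psma7 had 392, 413, 492 and 474 CPM (0.27, interval 0.14 to 0.41) and Psmc5 129.6, 176, 159 and 156 CPM (0.27, interval 0.033 to 0.50). Outside the GC, Psma7 had ratios of 0.19 in T-like and 0.29 in non-GC B-like cells, and Psmc5 0.11 and 0.33. In CC all mutants were above WT for Psmb3, Psma7 and Psmc5. The lowest were Psmd5 with 20.2, 24.95, 23.97 and 14.8 CPM (-0.45, interval -1.14 to 0.23), Psmd10 with 52.5, 46.7, 43.1 and 44.7 CPM (-0.23, interval -0.63 to 0.17) and Psmb4 with 160.2, 156, 191 and 144 CPM (-0.15, interval -0.38 to 0.070). Their intervals included 0, and C and K lay above WT for Psmd5.

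**Figure D5:**
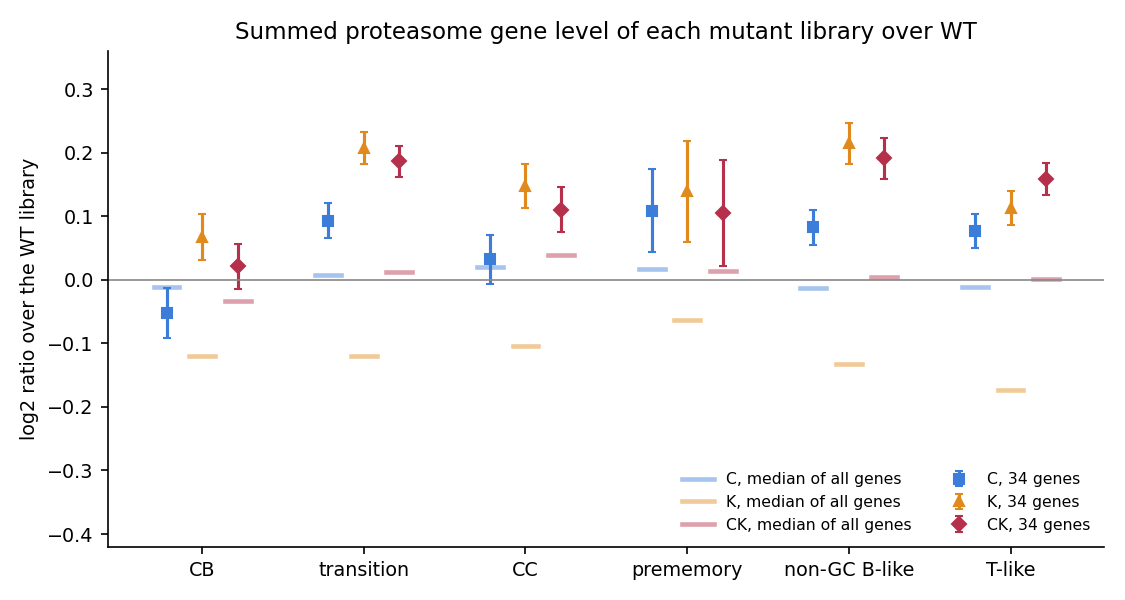
Log2 ratio of the summed level of the 34 genes, each mutant over WT, by class (points, with 95% counting intervals), and the median log2 ratio of all genes (short bars). In CB the points lie at -0.052 (C), 0.067 (K) and 0.022 (CK), and in non-GC B-like cells at 0.083, 0.21 and 0.19, with 1 mouse per genotype.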

How the data were processed

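B220+IgD- spleen cells from WT, C, K and CK mice (1 library each) were counted by the authors with Cell Ranger (3.0 per the labels) against mm10, and what was deposited is the raw UMI count of each gene in each barcode. The authors also deposited a table of GC B cells with class labels transferred in Seurat (4.0), module and cell cycle scores, and a pseudotime rank made for each mutant together with WT; these deposited scores were used only to place cells. The annotation was matched for 9804 cells. The percentage of mitochondrial UMIs per cell, computed by the authors and deposited in this table, was below 8% in each, with fewer than 2500 genes.

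All barcodes under 8% mitochondrial UMIs, annotated cells included, were clustered in scanpy 1.11.5 (30 principal components, Leiden). The 34 genes, immunoglobulin and mitochondrial genes were left out, and clusters were named from fixed markers. Non-GC B-like, T-like and plasma-like cells were the unannotated barcodes of clusters so named, with fewer than 2500 genes. UMIs were summed per library and class. Classes with at least 20 cells in every library (28 sums) were tested in edgeR 4.0.16 (R 4.3.3; filterByExpr, TMM scaling, quasi-likelihood, Benjamini-Hochberg over 10205 genes, adjusted p under 0.05) with library as a block, since classes of 1 library come from 1 mouse. This pairing follows from the design. The fit was also run on simulated counts in which libraries differed only in depth and random noise. That run cannot show how the fit handles the differences between these libraries. Genotypes (1 mouse each) were compared without a test, with exact conditional intervals of 95% and a fold of 1.3 among genes with at least 50 UMIs. Intervals cover counting error only. Library totals ran from 33270825 to 39803865 UMIs.

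Doublets (Scrublet, 3.32% to 5.01% of barcodes) were kept in the values reported. Fully described genes were those with the highest and the lowest CB over CC log2 fold change in each role group, Psmb5, Psmb6 and Psmb7, and the 3 highest and 3 lowest CK over WT ratios in CB and in CC; others are named where they make up a small count. The members, the gene lists and the tests were chosen with earlier results of these data known. Gene records came from GENCODE vM21 (31011 of 31053 genes matched by identifier) and promoters from the RefSeq table of GRCm38.p6. Alternatives were DESeq2 1.42.0, other scalings, filters and cell sets, each library left out, no block, and another fold. Of the gene lists, heat shock genes had a mean log2 ratio of CB over CC of 0.15 and the 3 immunoproteasome genes one of -0.030. Some genes of the pathway list are counted but not reported by name here.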

Additional observations from a re-analysis of the deposited data

Results flagged for a closer look

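In the summed level of the 34 genes, the log2 ratio of CB over CC was 0.44 in WT, and the nearest other library was at 0.36. The log2 ratio of CC over prememory cells was -0.19 in C, with the nearest other library at -0.11. Each of these libraries lay farther from the rest than Dixon's limit for 4 values. They were 2 of 26 values examined, and chance gives about 1 in 20.

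The summed level of C over WT had a log2 ratio of -0.052 in CB, while it was 0.093 in transition cells, 0.083 in non-GC B-like cells and 0.078 in T-like cells. With 1 mouse per genotype, this difference in direction between classes was not tested.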

How the results depend on the processing

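Of the results that answer a comparison, 187 values under the alternatives set at the outset kept their direction and size or call, 53 moved and 6 changed direction. The cause of each change below was not tested. The 29 members higher in CB than in CC became 14 with no library block and 18 in cells of 3000 to 6000 UMIs (an alternative chosen after seeing the data), and 24 to 29 with 1 library left out. The median of 0.31 became 0.37 with library totals only, 0.38 with cells of 2500 genes or more included, 0.25 in cells of 3000 to 6000 UMIs, and 0.30 to 0.36 with 1 library left out. The median of early CB over CB (-0.024) became 0.059 with those cells included and ranged from -0.070 to 0.022 with 1 library left out, turning positive without WT. That of CC over prememory cells (-0.039) became 0.045 with no low-count filter and 0.0044 in cells of 3000 to 6000 UMIs. That of CC over non-GC B-like cells (0.50) was 0.42 with totals only and 0.45 to 0.52 with 1 library left out.

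For non-GC B-like over T-like cells, the 2 higher members became 5 with totals only, 0 without the block, 0 in cells of 3000 to 6000 UMIs, 1 with ribosomal, immunoglobulin and mitochondrial genes left out, 1 in DESeq2 and 1 to 2 with 1 library left out. The 20 lower became 8 with totals only, 6 without the block and 15 to 19 with 1 library left out. Their median (-0.18) became -0.062 with totals only, -0.13 with no filter, -0.30 in cells of 3000 to 6000 UMIs and -0.23 with the ribosomal and other genes left out.

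The log2 ratios of the summed level in CB were, set against T-like cells, -0.13 for C, -0.046 for K and -0.14 for CK, set against non-GC B-like cells -0.13, -0.15 and -0.17, and with cells of 2500 genes or more included 0.047, 0.15 and 0.11. K was 0.19 relative to the median of all genes, and the median over members in CK was -0.017. In CC they were -0.045, 0.034 and -0.048 set against T-like cells, and set against non-GC B-like cells -0.051, -0.067 and -0.081. Relative to the median of all genes K was 0.25 and CK 0.072, and CK was 0.061 with the cells of 2500 genes or more included and 0.027 as a median over members. Set against non-GC B-like cells, transition cells had -0.0070 in K and -0.0052 in CK, and T-like cells -0.0053, -0.10 and -0.033.

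Counts of members past the fold in CB changed as follows. For C, 1 was higher set against T-like cells, and 0 were lower with cells of 2500 genes or more included or a fold of 1.5. For K, 2 were higher relative to the median of all genes, and 0 set against T-like cells, with the larger cells included or at a fold of 1.5, and 2 were lower set against T-like or against non-GC B-like cells. For CK, 3 were lower set against T-like and 4 against non-GC B-like cells. In CC, C had 1 higher set against T-like or against non-GC B-like cells and 0 at a fold of 1.5, and 1 lower set against T-like cells. K had 6 higher relative to the median of all genes and 2 lower set against T-like or against non-GC B-like cells, and CK had 0 lower at a fold of 1.5. With 10 pseudotime bins in place of 5, the first over the last was 0.43 for WT, 0.39 for C, 0.62 for K and 0.58 for CK. With 1 mouse per genotype, counting intervals do not cover differences between mice, and long transcripts in K were lower than in WT in CB, CC, T-like and non-GC B-like cells. Counts of 3' ends do not compare levels between genes.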
